A study of Mus musculus with 15 samples.

Results

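The genes described here are 9 of the 27907 genes measured in the mouse ovary, and they encode enzymes that inactivate or reduce steroid hormones. They were chosen by name for the known reactions of their enzymes: Hsd17b2, Hsd17b4 and Hsd17b11 for 17β-oxidation, Srd5a1, Srd5a2, Srd5a3 and Akr1c14 for the reduction of androgens and related substrates, and Hsd11b1 and Hsd11b2 for the interconversion of glucocorticoids. All 9 had values in every mouse and passed the filter, an average of 2 normalized counts or more across the mice, which kept 21525 genes. Whole ovaries of 7 HSD17B1-KI and 8 WT females, 6 months of age and at estrus, were compared, with 1 stranded mRNA library per mouse. HSD17B1-KI females were homozygous for a point mutation made by CRISPR/Cas9 that replaces the active-site serine of HSD17B1 with alanine (Ser143Ala), in all cells of the animal. WT females carried no mutated allele, came from heterozygous breeding and otherwise shared age and cycle stage with the HSD17B1-KI females. A point mutation does not remove the transcript, so that the Hsd17b1 level could not serve as a check of the labels. Values were from bulk tissue, in which fewer cells of a type and less RNA per cell cannot be told apart.

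Steroid hormones are switched between active and inactive forms by pairs of enzymes that work in opposite directions on the same carbon of the steroid ring. HSD17B1 reduces estrone to estradiol, and HSD17B2 oxidizes estradiol back to estrone and testosterone to androstenedione. Androgens are further reduced by 5α-reductases to dihydrotestosterone, which 3α-hydroxysteroid dehydrogenases such as AKR1C14 reduce to a weak androstanediol, and HSD11B1 and HSD11B2 regenerate and inactivate corticosterone.

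Expression is given as normalized counts, which are reads counted on a gene divided by 1 size factor per library. Recovered totals were between 26544745 and 72362981 reads per mouse. Markers of ovarian cells were present in every library, with sums between 89210 and 259311 normalized counts for 9 granulosa cell genes and between 7565 and 14408 for 8 oocyte genes. Some libraries stood apart. In HSD17B1-KI 4, HSD17B1-KI 5, WT 3 and WT 6, Cyp17a1, which encodes the enzyme that makes androgens in theca cells, was between 107 and 254 normalized counts, whereas it was at least 2033 in the other 11 mice. In WT 1 and WT 8 the summed level of 10 oviduct genes was 247614 and 165762 normalized counts, against a highest value of 34095 in HSD17B1-KI and none of the 10 at 0 in all mice.

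Promoter sequences are shown for Akr1c14 and Srd5a1, because these genes lie on the same chromosome and took opposite end places in the 4 mice low in Cyp17a1, as described further on. They are RefSeq sequences of GRCm38.p6, which held an entry for 6 of the 9 genes (Hsd17b11, Srd5a1, Srd5a2, Srd5a3, Akr1c14 and Hsd11b1). The stretch for Akr1c14 is chr13:4059341-4059540 on the + strand, 200 bases that end 50 bases before the RefSeq start. In GENCODE the gene starts farther upstream, at 4049011, so that this stretch lies within the span of the gene and outside its exons. The stretch for Srd5a1 is chr13:69611464-69611713 on the - strand, the 250 bases before the start. Capitals mark matches to the CCAAT box, which reads ATTGG where it lies on the other strand.

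Akr1c14: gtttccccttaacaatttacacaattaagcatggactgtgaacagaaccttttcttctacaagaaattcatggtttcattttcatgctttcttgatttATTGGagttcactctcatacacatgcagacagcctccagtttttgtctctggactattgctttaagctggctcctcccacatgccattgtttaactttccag

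Srd5a1: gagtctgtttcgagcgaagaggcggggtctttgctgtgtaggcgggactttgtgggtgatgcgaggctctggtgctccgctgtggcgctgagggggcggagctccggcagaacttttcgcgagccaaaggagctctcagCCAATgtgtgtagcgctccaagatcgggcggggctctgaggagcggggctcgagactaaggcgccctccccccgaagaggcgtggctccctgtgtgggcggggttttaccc

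The Akr1c14 stretch had 39.0% G and C and no CG dinucleotide, whereas the Srd5a1 stretch had 64.8% and 20 CG dinucleotides. The median G and C content of all 32851 upstream windows of 250 bases was 52.4%. In 4 of the 6 genes a match to CCAAT was found on either strand, in Hsd17b11, Srd5a1, Akr1c14 and Hsd11b1, and 33.8% of all windows held one. For Hsd11b1 all 250 bases of the window lie in exons annotated by GENCODE, for Hsd17b11 123 of them do, for Srd5a2 56 and for Srd5a3 2, so that these windows are not wholly upstream of transcription. No match was found in the 6 windows to AGGTCA, the half-site of nuclear receptors (14% of all windows), to AGAACA, the half-site of steroid receptors (16.1%), or to TATAAA (12.4%). None of these motifs overlaps another in its letters, and both strands were read.

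Within the group, the transcript of the enzyme that oxidizes estradiol was the one with the clearest difference between the genotypes. Hsd17b2 was lower in HSD17B1-KI ovaries, at 0.709 times the WT mean. Srd5a3 was slightly higher, at 1.08 times the WT mean. The other 7 genes had intervals of their difference that included no change. With limma-trend and adjustment over all 21525 genes (Benjamini-Hochberg method), none of the 9 genes was among the 46 DE genes with an adjusted p under 0.05 (0.214% of the genes tested). At an unadjusted p under 0.05, limma-trend gave 2 of the 9, Hsd17b2 and Srd5a3, where 10% of all genes passed. DESeq2 on the recovered reads called 1 of the 9, Hsd17b2, where 2.3% of the 19790 genes with an adjusted p were called. Single genes were also compared by exact permutation tests of the mean log2 value, two-sided, in which each of the 6435 possible divisions into 7 and 8 mice was counted, for 9 genes without adjustment.

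Hsd17b2 (ENSMUSG00000031844, chr8:117701904-117759027 on the + strand of GRCm38, 8 exons) was measured at 562, 467, 494, 397, 516, 429 and 542 normalized counts in HSD17B1-KI 1 to 7. In WT 1 to 8 it was 611, 609, 604, 1033, 647, 550, 763 and 675 normalized counts. Every HSD17B1-KI mouse was below the WT mean, and 6 of 7 were below every WT mouse. Only HSD17B1-KI 1 reached into the range of WT, where it passed WT 6. Of all genes tested, 13.2% had the 7 HSD17B1-KI values all above or all below the WT mean, and Hsd17b2 was the 1 of the 9 genes that did. The means were 487 ± 59.8 (SD, n = 7) and 686 ± 154 (SD, n = 8), and the log2 fold change was -0.48 (SE 0.12, 95% interval -0.74 to -0.22). The exact permutation test gave p = 0.000466. With limma-trend the adjusted p was 0.132, with edgeR 0.135 and with DESeq2 0.0174 at a log2 fold change of -0.50, and over the alternatives other than DESeq2 with mice left out it lay between 0.0174 and 0.501. With each mouse left out in turn, DESeq2 gave an adjusted p between 0.00878 (without WT 6) and 0.0615. The DESeq2 call was lost without HSD17B1-KI 2 (adjusted p = 0.0573), without HSD17B1-KI 4 (0.0522) or without HSD17B1-KI 6 (0.0615).

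Without WT 4, which had the highest Hsd17b2 value, the log2 fold change was -0.39 by limma-trend (adjusted p = 0.1315) and -0.39 by DESeq2 (adjusted p = 0.0093). Without the 4 mice low in Cyp17a1 it was -0.52 by limma-trend (adjusted p = 0.139) and -0.54 by DESeq2 (adjusted p = 0.0218). Without WT 1 and WT 8 it was -0.50 by limma-trend (adjusted p = 0.271) and -0.53 by DESeq2 (adjusted p = 0.0426).

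Markers of the ovarian surface epithelium moved in the same direction as Hsd17b2. Of 10 such genes, all measured and none at 0 in all mice, 5 were lower in HSD17B1-KI at an unadjusted limma-trend p under 0.05 and none was higher. The 5 were the keratin gene Krt8, the uroplakin gene Upk1b, Msln, which encodes mesothelin, Lrrn4 and the mucin gene Muc16. None of the 10 was a DE gene. Their summed level was between 12316 and 21563 normalized counts in HSD17B1-KI and between 14781 and 46044 in WT. The top of the WT range was WT 1 and WT 8, which were high in oviduct genes, since the other 6 WT mice lay between 14781 and 25704 and the medians were 16525 in HSD17B1-KI and 18079 in WT. With the mean centred log2 level of these markers in each mouse as a covariate, the log2 fold change of Hsd17b2 was -0.43 with an adjusted p of 0.378 by limma-trend. Upk1b was also the gene whose level went most closely with that of Hsd17b2 across mice within a genotype. It was 1738 ± 102 normalized counts in HSD17B1-KI (SD, n = 7) against 2031 ± 383 in WT (SD, n = 8), and its highest value, 2937, was in WT 4 as for Hsd17b2. The correlation of the other 9 markers with Hsd17b2 was between -0.12 and 0.43. Of 9 granulosa cell markers, the correlation with Hsd17b2 was between 0.27 and 0.83, with 0.83 for Cyp19a1, 0.76 for Inhba, 0.71 for Nr5a2, 0.69 for Fshr, 0.68 for Hsd17b1 and 0.62 for Inha. WT 4 was the highest WT mouse for 6 of these 9 genes as well. Without WT 4 (14 mice) r was 0.54 for Upk1b and between -0.29 and 0.30 for the other 9 surface epithelium markers, with Muc16 falling from 0.43 to -0.15. For the 9 granulosa cell markers it was then between 0.14 (Amh, from 0.42) and 0.77 (Cyp19a1). Between the genotypes, none of these 9 passed the unadjusted limma-trend threshold, and their summed level had a median of 206762 normalized counts in HSD17B1-KI and 134732 in WT. In adipose tissue markers 5 of 6 genes were lower and 1 was higher at the unadjusted limma-trend threshold, and in smooth muscle markers 2 of 5 were lower. The part of these cells and tissues in the Hsd17b2 difference was not tested, beyond the fit with the surface epithelium covariate.

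**Figure D1:**
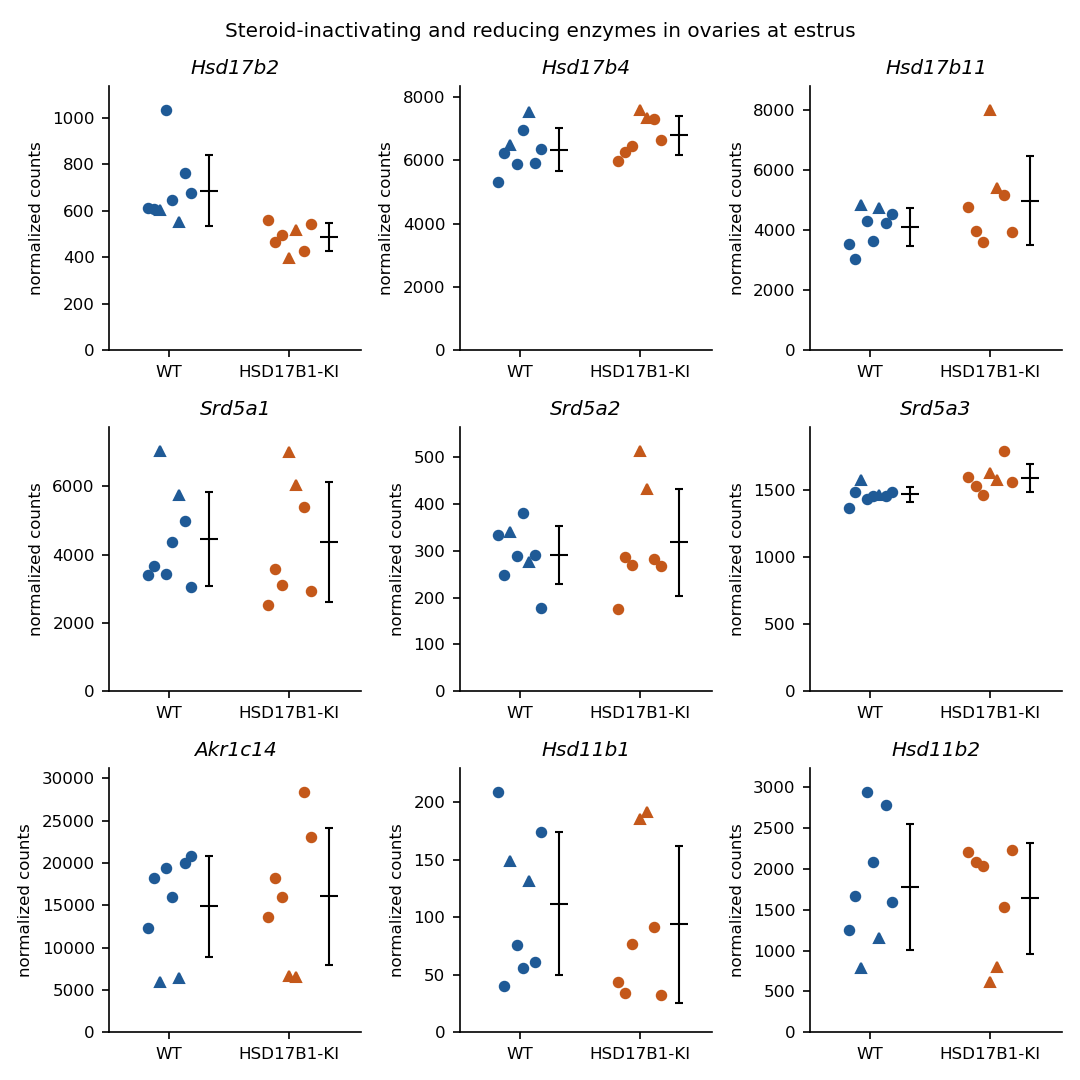
Normalized counts of the 9 enzymes in each mouse, WT in blue and HSD17B1-KI in orange, on linear axes that start at 0. Each point is a mouse, triangles are the 4 mice low in Cyp17a1, and the black bar with whiskers is the mean and SD. For Hsd17b2, 6 of 7 HSD17B1-KI points lie below all WT points, whereas for the other genes the groups overlap more widely.

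Hsd17b4 encodes the bifunctional enzyme of peroxisomal β-oxidation, which also oxidizes estradiol. The gene (ENSMUSG00000024507, chr18:50128201-50196269, + strand) had a lowest, median and highest value of 5987, 6645 and 7590 normalized counts in HSD17B1-KI and of 5329, 6291 and 7527 in WT. The ranges of the genotypes overlapped in part. WT 1 (5329), WT 4 (5889) and WT 7 (5932) lay below every HSD17B1-KI mouse, and HSD17B1-KI 4 lay above every WT mouse. The means were 6797 ± 614 (SD, n = 7) and 6337 ± 677 (SD, n = 8), and the log2 fold change was 0.10 (95% interval -0.06 to 0.26, exact permutation p = 0.185). Without WT 1 and WT 8 it was 0.06 (adjusted p = 0.888 by limma-trend). Over all 15 mice the highest value was 1.42 times the lowest. Of 14 other genes of peroxisomal β-oxidation, none was called by limma-trend or DESeq2, while 3 were higher at the unadjusted limma-trend threshold and none was lower. These 3 were the thiolase gene Acaa1a (log2 fold change 0.15, adjusted p = 0.265 by limma-trend), the racemase gene Amacr (0.32, adjusted p = 0.220) and the reductase gene Pecr (0.24, adjusted p = 0.316). The median log2 fold change of the 14 was 0.05, against -0.02 over all genes tested.

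Hsd17b11 encodes a lipid droplet enzyme that oxidizes androstanediol. The gene (ENSMUSG00000029311, chr5:103989762-104021919, - strand) had a lowest, median and highest value of 3628, 4770 and 8009 normalized counts in HSD17B1-KI and of 3051, 4269 and 4832 in WT. In HSD17B1-KI 4, HSD17B1-KI 5 and HSD17B1-KI 6 it was above every WT mouse, and the other 4 HSD17B1-KI mice lay within the range of WT. The means were 4991 ± 1492 (SD, n = 7) and 4114 ± 632 (SD, n = 8), with a log2 fold change of 0.25 (95% interval -0.07 to 0.57, exact permutation p = 0.153). Without HSD17B1-KI 4, the highest mouse, the log2 fold change was 0.12 (exact permutation p = 0.341), and without the 4 mice low in Cyp17a1 it was 0.15 (adjusted p = 0.650 by limma-trend). Of 14 lipid droplet genes, 2 were higher and 1 was lower at the unadjusted limma-trend threshold and none was called. Plin1 and Plin2, which encode coat proteins of the droplet, had log2 fold changes of 0.44 (adjusted p = 0.463 by limma-trend) and 0.39 (adjusted p = 0.308). Cidec, which encodes a droplet fusion protein, had a log2 fold change of -1.53 (adjusted p = 0.441 by limma-trend). Plin1 and Cidec are also in the list of adipose tissue markers.

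Srd5a1 encodes the main 5α-reductase of the group by level, an enzyme that reduces testosterone to dihydrotestosterone. In HSD17B1-KI the lowest, median and highest value of Srd5a1 (ENSMUSG00000021594, chr13:69573449-69611442, - strand) was 2520, 3594 and 6994 normalized counts, and in WT it was 3070, 4021 and 7035. The ranges were almost the same in both genotypes, and within each of them some mice had more than 2-fold the level of others. The means were 4372 ± 1746 (SD, n = 7) and 4466 ± 1377 (SD, n = 8), with a log2 fold change of -0.07 (95% interval -0.57 to 0.42, exact permutation p = 0.774). Without WT 1 and WT 8 it was -0.21 (adjusted p = 0.888 by limma-trend). Exons of Srd5a1 overlap those of Gm17108 on the same strand, so that reads there cannot be assigned to either gene with certainty.

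Srd5a2 encodes another 5α-reductase. Its lowest, median and highest value (ENSMUSG00000038541, chr17:74016955-74047916, - strand) was 175, 282 and 512 normalized counts in HSD17B1-KI and 178, 289 and 381 in WT. Only HSD17B1-KI 4 and HSD17B1-KI 5, both low in Cyp17a1, exceeded all WT mice. The means were 318 ± 114 (SD, n = 7) and 291 ± 62.0 (SD, n = 8), with a log2 fold change of 0.08 (95% interval -0.36 to 0.52, exact permutation p = 0.715), and the sign turned under several alternatives. Without WT 1 and WT 8 the value was 0.0057 (adjusted p = 0.999 by limma-trend). Exons of CT025731.1 overlap this gene on the same strand.

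Srd5a3 encodes a reductase of polyprenol, which is needed to make the dolichol that carries sugars in protein glycosylation. Its values (ENSMUSG00000029233, chr5:76140271-76155504, + strand) were 1603, 1530, 1462, 1629, 1574, 1793 and 1558 normalized counts in HSD17B1-KI 1 to 7. In WT 1 to 8 they were 1371, 1490, 1580, 1436, 1459, 1467, 1459 and 1491 normalized counts. In HSD17B1-KI, 6 of 7 mice were above the WT mean and 3 were above every WT mouse, while HSD17B1-KI 3 lay just below the WT mean. The means were 1593 ± 103 (SD, n = 7) and 1469 ± 58.6 (SD, n = 8), and the log2 fold change was 0.11 (SE 0.05, 95% interval 0.00 to 0.23). The exact permutation test gave p = 0.00699, whereas the adjusted p was 0.480 with limma-trend and lay between 0.240 and 0.698 over the alternatives. The unadjusted limma-trend p of 0.0426 was no longer under 0.05, and at most 0.0981, when any mouse other than HSD17B1-KI 2, HSD17B1-KI 3 or WT 3 was left out. The difference was small in size, and Srd5a3 varied less between mice of a genotype than almost all other genes, with an SD of 0.08 on the log2 scale (percentile 0.8 of the genes tested). Of 10 other genes that make dolichol or use it, 2 were higher at the unadjusted limma-trend threshold, none was lower and none was called. These were the mannosyltransferase genes Alg1 (log2 fold change 0.25, adjusted p = 0.221 by limma-trend) and Alg2 (0.13, adjusted p = 0.495), and the median of the 10 was 0.01.

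Akr1c14, the 3α-hydroxysteroid dehydrogenase, had the highest level of the 9 genes. Its values (ENSMUSG00000033715, chr13:4049011-4090688, + strand) were 13599, 18199, 15965, 6710, 6534, 28390 and 23035 normalized counts in HSD17B1-KI 1 to 7. In WT 1 to 8 they were 12299, 18195, 5959, 19397, 15972, 6425, 19970 and 20890 normalized counts. The highest values were in HSD17B1-KI 6 and HSD17B1-KI 7 and the lowest in WT 3 and WT 6, and between them the genotypes overlapped. The means were 16062 ± 8057 (SD, n = 7) and 14889 ± 6004 (SD, n = 8), with a log2 fold change of 0.07 (95% interval -0.71 to 0.84, exact permutation p = 0.863). Without WT 1 and WT 8 it was 0.15 (adjusted p = 0.969 by limma-trend). The spread between mice leaves a wide interval, from 0.612 to 1.79 times the WT level. Exons of Gm18857 overlap Akr1c14 on the same strand, and several Akr1c genes near it on chromosome 13 are similar in sequence, so that the assignment of reads to Akr1c14 is uncertain.

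Hsd11b1, which regenerates active glucocorticoid, was the gene with the lowest level. The lowest, median and highest value (ENSMUSG00000016194, chr1:193221634-193264075, - strand) was 32.5, 76.8 and 192 normalized counts in HSD17B1-KI and 40.1, 103 and 209 in WT. In HSD17B1-KI the highest values were in HSD17B1-KI 4 and HSD17B1-KI 5, which were low in Cyp17a1, and in WT they were in WT 1 and WT 8, which were high in oviduct genes. Over the 15 mice the highest value was 6.42 times the lowest. The means were 93.8 ± 68.4 (SD, n = 7) and 112 ± 62.2 (SD, n = 8), with a log2 fold change of -0.37 (95% interval -1.34 to 0.60, exact permutation p = 0.458). With the surface epithelium covariate the sign of this value turned, to 0.18 (adjusted p = 0.933 by limma-trend), and without WT 1 and WT 8 the value was -0.04 (adjusted p = 0.995). Without the 4 mice low in Cyp17a1 it was -0.73 (adjusted p = 0.542 by limma-trend). With each mouse left out in turn it lay between -0.60 (without HSD17B1-KI 5) and -0.18 (without HSD17B1-KI 7).

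Hsd11b2, which inactivates corticosterone, had values (ENSMUSG00000031891, chr8:105518755-105523988, + strand) of 2202, 2075, 2026, 616, 797, 1530 and 2223 normalized counts in HSD17B1-KI 1 to 7. In WT 1 to 8 they were 1249, 1664, 786, 2935, 2077, 1156, 2772 and 1589 normalized counts. The highest values were in WT 4 and WT 7 and the lowest in HSD17B1-KI 4 and WT 3, so that neither genotype stood above the other. The means were 1638 ± 679 (SD, n = 7) and 1779 ± 767 (SD, n = 8), with a log2 fold change of -0.14 (95% interval -0.85 to 0.56, exact permutation p = 0.686). Without WT 1 and WT 8 it was -0.21 (adjusted p = 0.940 by limma-trend).

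**Figure D2:**
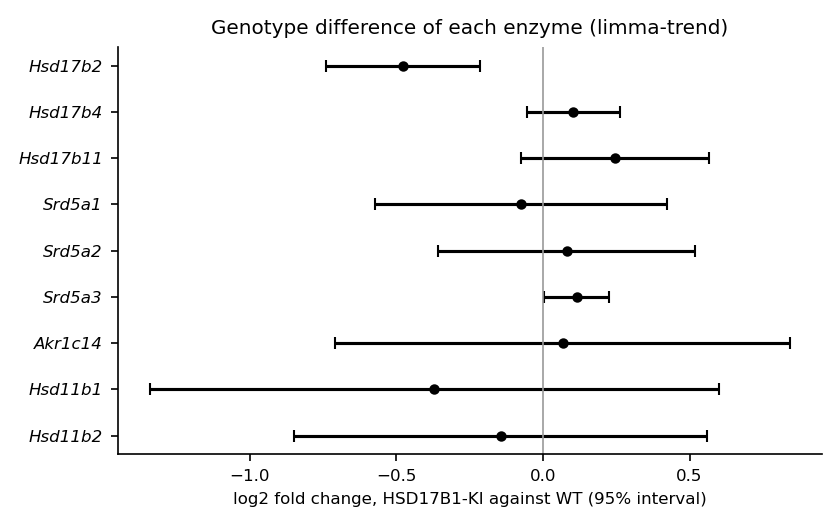
Log2 fold change of each enzyme, HSD17B1-KI against WT, from limma-trend, with points for the estimate and bars for the 95% interval. The interval of Hsd17b2 (-0.74 to -0.22) lies below 0 and that of Srd5a3 starts at 0.00, whereas the intervals of the other 7 genes span 0, with the widest for Hsd11b1 (-1.34 to 0.60).

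Levels between genes were compared per kilobase of exon. In WT the order was Akr1c14 (4597 ± 1854 normalized counts per kb, SD, n = 8), Hsd17b4 (1862 ± 199), Srd5a1 (1535 ± 473), Hsd17b11 (1260 ± 194), Hsd11b2 (967 ± 417), Hsd17b2 (357 ± 79.8), Srd5a3 (316 ± 12.6), Srd5a2 (182 ± 38.6) and Hsd11b1 (26.3 ± 14.6). Among neighbours in this order, the distance from Hsd17b4 through Srd5a1 and Hsd17b11 to Hsd11b2 was within the larger SD of the pair at each step, and so was that from Hsd17b2 to Srd5a3. The steps from Akr1c14 to Hsd17b4, from Hsd11b2 to Hsd17b2, from Srd5a3 to Srd5a2 and from Srd5a2 to Hsd11b1 were larger than the SD of either gene. In HSD17B1-KI the order differed in 2 places. Hsd17b11 (1529 ± 457 normalized counts per kb, SD, n = 7) stood just above Srd5a1 (1503 ± 600), and Srd5a3 (343 ± 22.2) stood above Hsd17b2 (253 ± 31.1). The exchange of Hsd17b11 and Srd5a1 was within their SD.

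**Figure D3:**
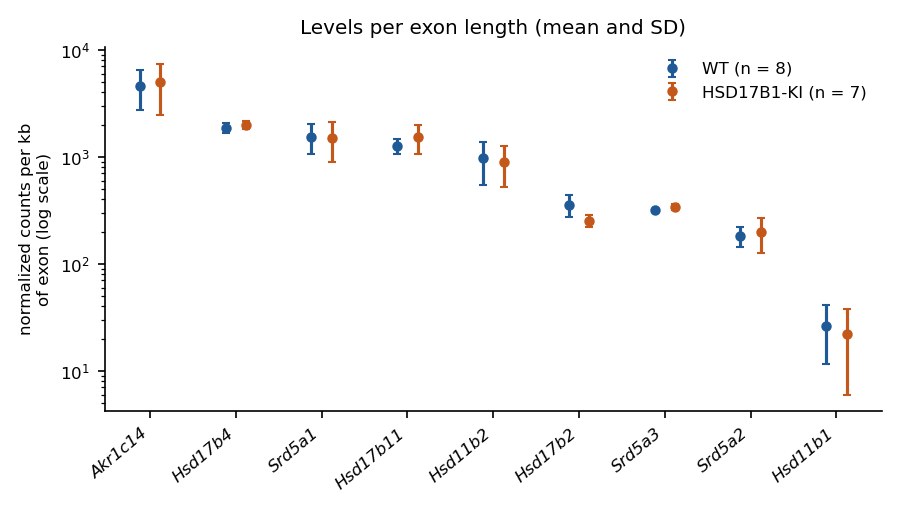
Normalized counts per kilobase of exon for the 9 enzymes on a log axis, with points for the mean and whiskers for the SD, WT (n = 8) in blue and HSD17B1-KI (n = 7) in orange. Akr1c14 has the highest level and Hsd11b1, at 26.3 in WT, the lowest.

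Much of the variation of these enzymes lay between mice of the same genotype. Within a genotype the SD on the log2 scale was 0.96 for Hsd11b1 (percentile 88.5 of all genes tested), 0.78 for Akr1c14 (81.2), 0.70 for Hsd11b2 (77.6), 0.50 for Srd5a1 (65.0) and 0.42 for Srd5a2 (59.0). It was 0.31 for Hsd17b11 (48.3), 0.24 for Hsd17b2 (37.8) and 0.14 for Hsd17b4 (15.3). The median over all genes was 0.33.

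The mice low in Cyp17a1, of which 2 were HSD17B1-KI and 2 were WT, took the end places for 3 of the 9 genes. For Akr1c14 they were the 4 lowest of 15, between 5959 and 6710 normalized counts, with the next mouse, WT 1, at 12299. They were also the 4 lowest for Hsd11b2, where the next mouse was again WT 1, at 1249 normalized counts after 1156 in WT 6. Of all genes tested, 2.62% had these mice as the 4 lowest. For Srd5a1 they were the 4 highest, with 7035 normalized counts in WT 3, 6994 in HSD17B1-KI 4, 6030 in HSD17B1-KI 5 and 5741 in WT 6, and the next mouse, HSD17B1-KI 6, had 5393. Of all genes tested, 4.28% had them as the 4 highest. The gap was thus wide for Akr1c14 and narrow for Hsd11b2 and Srd5a1. These mice were picked by a measured level, so that no test was made between them and the others.

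Other genes also set these mice apart. Cyp11b1, which encodes the enzyme that makes corticosterone in the adrenal cortex, was between 1146 and 2325 normalized counts in the 4 mice and at most 195 in the other 11. The adrenal genes Cyp11b2 and Cyp21a1 did not follow it, with at most 5.00 and 22.1 normalized counts in any mouse. In the 5 adrenal cortex markers the sum was between 61.8 and 2058 normalized counts in HSD17B1-KI and between 42.0 and 2556 in WT. Markers of ovarian cells moved with these mice as well. The summed level of the 9 granulosa cell genes was lowest in them, between 89210 and 120965 normalized counts, and the next mouse, WT 1, had 125274. The summed level of 6 stroma genes was highest in them, between 112426 and 153758 normalized counts, and the next mouse, WT 5, had 98306. The part of these cells in the Akr1c14, Hsd11b2 and Srd5a1 values was not tested. Without the 4 mice the log2 fold change of Hsd11b2 between the genotypes turned to 0.03 (adjusted p = 0.970 by limma-trend) and that of Srd5a2 to -0.14 (adjusted p = 0.797). That of Akr1c14 was 0.13 (adjusted p = 0.811 by limma-trend) and that of Srd5a1 was -0.15 (adjusted p = 0.760).

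**Figure D4:**
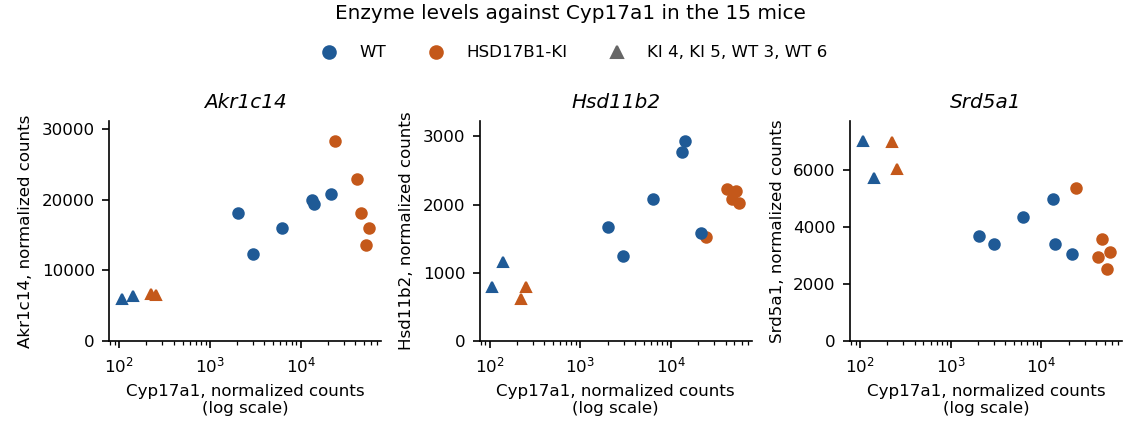
Normalized counts of Akr1c14, Hsd11b2 and Srd5a1 (linear axes from 0) against those of Cyp17a1 (log axis) in the 15 mice, WT in blue and HSD17B1-KI in orange. Each point is a mouse, and the triangles are HSD17B1-KI 4, HSD17B1-KI 5, WT 3 and WT 6, which lie lowest for Akr1c14 and Hsd11b2 and highest for Srd5a1.

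Ratios of normalized counts within a library do not depend on scaling. Those of Hsd17b1 to Hsd17b2 and of Hsd11b2 to Hsd11b1 set opposing enzymes side by side. That of Akr1c14 to Srd5a1 does so for successive reductions of androgens. The ratio of Hsd17b1, which makes estradiol, to Hsd17b2, which inactivates it, was 24.6, 18.2, 22.1, 13.7, 17.8, 37.9 and 32.1 in HSD17B1-KI 1 to 7. In WT 1 to 8 it was 11.9, 13.3, 13.6, 13.7, 10.9, 11.99, 16.8 and 9.60. In 6 of 7 HSD17B1-KI mice the ratio exceeded that of every WT mouse, and only HSD17B1-KI 4 and WT 7 broke the order. Hsd17b2, by which it is divided, was itself below every WT mouse in 6 of 7 HSD17B1-KI mice, so that the ratio is not a separate result. How often ratios of other genes part the genotypes in this way was not counted. The transcript of Hsd17b1 itself was 11650 ± 4351 normalized counts in HSD17B1-KI (SD, n = 7) against 8829 ± 2952 in WT (SD, n = 8), with a log2 fold change of 0.36 and an adjusted p of 0.666 by limma-trend. In HSD17B1-KI these transcripts encode the inactive enzyme, so that the ratio is one of transcripts only.

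The ratio of Hsd11b2 to Hsd11b1 had a lowest, median and highest value of 3.32, 26.4 and 68.3 in HSD17B1-KI and of 5.29, 23.2 and 45.2 in WT. The 2 HSD17B1-KI mice low in Cyp17a1 had the lowest ratios, 3.32 and 4.16, and among WT mice WT 3 had 5.29 and WT 6 had 8.81, beside 5.98 in WT 1 and 9.15 in WT 8. The ratio of Akr1c14 to Srd5a1 was 0.959 in HSD17B1-KI 4, 1.08 in HSD17B1-KI 5, 0.847 in WT 3 and 1.12 in WT 6. In the other 11 mice it was at least 3.60, and its median over all mice of a genotype was 5.11 in HSD17B1-KI and 3.83 in WT. For both ratios the genotypes overlapped.

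**Figure D5:**
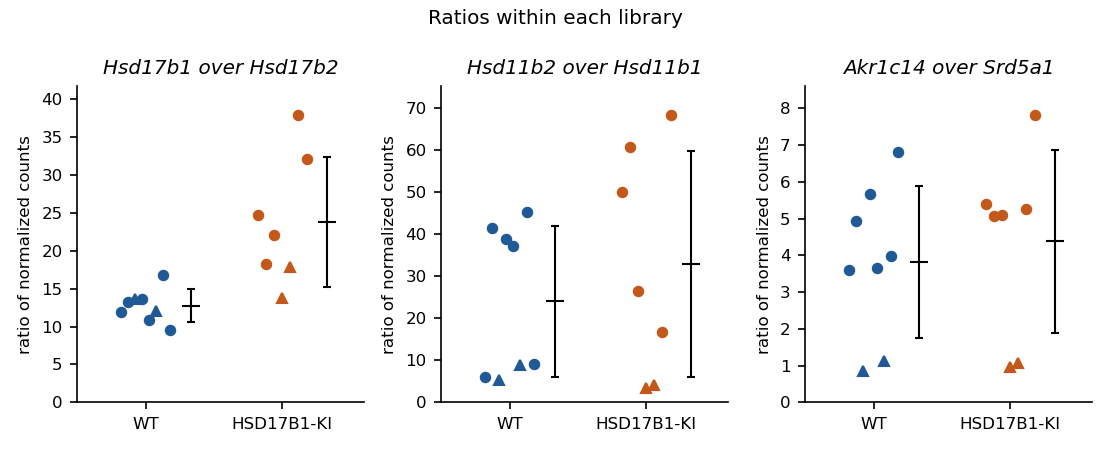
Ratios of normalized counts within each library, WT in blue and HSD17B1-KI in orange, on linear axes from 0. Each point is a mouse, triangles are the 4 mice low in Cyp17a1, and black bars with whiskers are the mean and SD. Hsd17b1 over Hsd17b2 is above all WT mice in 6 of 7 HSD17B1-KI mice, and Akr1c14 over Srd5a1 is lowest in the triangles of both genotypes.

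Likeness between genes was measured as Pearson's r of log2(normalized count + 1) over the 15 mice, after the mean of each genotype was taken out, among the 13865 genes that averaged 100 or more normalized counts. All points share libraries and the mice that stood apart, so r is given as a description, followed by r over the 11 mice without those low in Cyp17a1. The 3 genes most like Hsd17b2 were Upk1b (0.83, then 0.88), Cyp19a1, which encodes the aromatase that makes estrogens (0.83, then 0.87), and Fam20c (0.81, then 0.84), where the values of Upk1b and Cyp19a1 without WT 4 were 0.54 and 0.77. For Hsd17b4 they were Ppp2r5c (0.95 in both), Tceb3 (0.93, then 0.92) and Tpm3 (0.92, then 0.85). For Hsd17b11 they included the glutamine synthetase gene Glul (0.89, then 0.74) and Nr2f2 (0.88, then 0.80). Those for Srd5a3 were Ndfip1 (0.91, then 0.90), Bcl10 (0.91, then 0.92) and Nexn (0.90, then 0.88). The likeness of genes to Hsd17b2, Hsd17b4 and Srd5a3 was thus about the same without the mice low in Cyp17a1, and that to Hsd17b11 was lower.

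Among the genes that varied most, Srd5a1 was most like the short-chain dehydrogenase gene Dhrs7 (0.96, then 0.90), Ctps2 (0.94, then 0.85) and Serpinb9 (0.93, then 0.89). Srd5a2 was most like Lmo2 (0.87, then 0.85), Adap1 (0.84, then 0.67) and Kcnu1 (0.83, then 0.73). For Akr1c14 the genes were Csrnp3 (0.98, then 0.85), Gm4926 (0.97, then 0.84) and the bone morphogenetic protein receptor gene Bmpr1b (0.96, then 0.72). Hsd11b1 was most like Rnase4 (0.93, then 0.94), Cnp (0.93, then 0.89) and Pnp (0.92, then 0.88). Hsd11b2 was most like Syt13 (0.98, then 0.94), Mtcl1 (0.95, then 0.87) and Slc38a3 (0.95, then 0.79). Without the 4 mice, r fell for all 3 genes of Akr1c14 and stayed high for Rnase4 and Syt13.

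Other genes of steroid inactivation and of the pathways around the 9 enzymes were described by list. Of 8 tested genes for other 17β-hydroxysteroid dehydrogenases, none was called, and the median log2 fold change was 0.32. It was positive for 7 of them and negative for 1, Hsd17b7 (-0.82, adjusted p = 0.717 by limma-trend). Hsd17b7 was 2112 ± 889 normalized counts in HSD17B1-KI (SD, n = 7) against 6997 ± 8738 in WT (SD, n = 8). Some of the 7 had few counts, such as H2-Ke6 with 4.07 ± 2.68 (SD, n = 7) and 2.64 ± 1.52 (SD, n = 8). Hsd17b10, which encodes a mitochondrial enzyme, was 1 higher gene at the unadjusted limma-trend threshold (log2 fold change 0.21, adjusted p = 0.495). Of 11 tested aldo-keto reductase genes akin to Akr1c14, limma-trend called none and DESeq2 called 1 higher, Akr1b3, the aldose reductase gene. Akr1b3 was 10781 ± 1482 normalized counts in HSD17B1-KI (SD, n = 7) against 7422 ± 1279 in WT (SD, n = 8), above the WT mean in 7 of 7 mice (log2 fold change 0.55, adjusted p = 0.0617 by limma-trend and 0.00209 by DESeq2). Akr1b8 had a log2 fold change of 0.68 (adjusted p = 0.190 by limma-trend) and Akr1cl one of 0.39 (adjusted p = 0.408). Akr1c20 had only 4.09 ± 2.06 (SD, n = 7) and 1.84 ± 1.72 (SD, n = 8) normalized counts. The median of the 11 was 0.55, against 0.07 for the 9 enzymes, and 10 of the 11 had a positive log2 fold change. The largest, 1.57, was that of Akr1d1, which had only 11.7 ± 8.05 (SD, n = 7) and 6.02 ± 8.87 (SD, n = 8) normalized counts. For Akr1c12, Akr1c13 and Akr1c19 the log2 fold change was -0.27, 0.17 and 0.007.

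Androstanediol is turned back to dihydrotestosterone by 3α-oxidation. All 6 tested genes of this list had a negative log2 fold change (median -0.32) and none was called, but 2 passed the unadjusted limma-trend threshold. Rdh10, which also oxidizes retinol, was 809 ± 95.1 normalized counts in HSD17B1-KI (SD, n = 7) against 1112 ± 411 in WT (SD, n = 8) (log2 fold change -0.39, adjusted p = 0.483 by limma-trend). Rdh9 was lower but rare, at 2.79 ± 1.47 (SD, n = 7) against 5.89 ± 3.69 (SD, n = 8) normalized counts. Rdh16 also had few, at 9.66 ± 5.34 (SD, n = 7) and 11.2 ± 6.19 (SD, n = 8). The largest log2 fold change of the list was that of Dhrs9 (-1.72, adjusted p = 0.613 by limma-trend). Dhrs9 was 64.7 ± 87.5 normalized counts in HSD17B1-KI (SD, n = 7) against 287 ± 450 in WT (SD, n = 8), with 1290 in the highest WT mouse.

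Conjugation with sulfate makes steroids inactive and soluble. Of 5 tested genes for it, limma-trend called none and DESeq2 called 3, all higher in HSD17B1-KI. Papss2, which makes the sulfate donor, was 5806 ± 1056 normalized counts in HSD17B1-KI (SD, n = 7) against 3855 ± 849 in WT (SD, n = 8) (log2 fold change 0.60, adjusted p = 0.125 by limma-trend and 0.0163 by DESeq2). Sult1a1, a sulfotransferase gene, was 1265 ± 603 (SD, n = 7) and 736 ± 114 (SD, n = 8) normalized counts (log2 fold change 0.66, adjusted p = 0.293 by limma-trend and 0.0455 by DESeq2). Sult1e1, the estrogen sulfotransferase gene, was at 12.2 ± 15.2 (SD, n = 7) against 1.17 ± 1.71 (SD, n = 8) normalized counts (adjusted p = 0.142 by limma-trend and 0.0101 by DESeq2). Of 5 tested glucuronidation genes none was called, and the most abundant, Ugt1a7c, had a log2 fold change of -0.62 (adjusted p = 0.662 by limma-trend). The Ugt1a genes share exons, so that their counts cannot be told apart with certainty. Of 5 tested genes of oxidative estrogen metabolism, DESeq2 called Nqo1, a quinone reductase gene, higher in HSD17B1-KI (log2 fold change 0.72, adjusted p = 0.0885 by limma-trend and 0.00559 by DESeq2), and Cyp1b1, the most abundant, had a log2 fold change of -0.06.

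Of 11 tested genes for glucocorticoid receptors, the cofactor supply of HSD11B1 and glucocorticoid targets, none was called and 2 passed the unadjusted limma-trend threshold. These were Nr3c2, the mineralocorticoid receptor gene (log2 fold change 0.31, adjusted p = 0.452 by limma-trend), and Serpina6, the gene of corticosteroid-binding globulin (0.90, adjusted p = 0.189). Fkbp5, the most abundant, had a log2 fold change of -0.37 (adjusted p = 0.788 by limma-trend), and the median of the 11 was 0.02. Of 10 genes of sex steroid synthesis, limma-trend called 1, Hsd3b6, at 206 ± 95.3 normalized counts in HSD17B1-KI (SD, n = 7) against 53.5 ± 26.1 in WT (SD, n = 8) (log2 fold change 1.97, adjusted p = 0.0239). Fdx1, which encodes an electron donor of side chain cleavage, had a log2 fold change of 0.50 (adjusted p = 0.406 by limma-trend), and Hsd3b1, the most abundant, one of 0.20 (adjusted p = 0.697).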

How the data were processed

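mRNA was sequenced from the ovaries of 15 females (7 HSD17B1-KI, 8 WT). The authors trimmed the reads (bcl2fastq 2.20 is also named in the submitters' processing notes), aligned them to mm10 with STAR 2.7.3 and deposited normalized counts, a signal divided by 1 size factor per library; the counting program and annotation are not given in the sources used here. Division by the smallest step of each library gave whole numbers (tolerance 0.01) for 100% of values, and these reads were used for edgeR and DESeq2, in place of the study's own counts. Other values were compared on log2(normalized count + 1) with limma-trend, genotype being the only term.

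The 9 genes and all lists were chosen with earlier results of these data known. Named genes were the 9, the 3 most like each by r, and from each list the DE genes, up to 3 with the largest change at an unadjusted p under 0.05 and the most abundant. Results of 2 genes that this rule gave are not reported here. Cyp11b1, Cyp11b2, Cyp21a1, Hsd17b7, H2-Ke6, Akr1d1, Akr1c12, Akr1c13, Akr1c19, Rdh16, Dhrs9 and the marker genes were named after their values were seen. Nothing in the labels shows more than that each library is a separate mouse. Hsd17b6, Akr1c6, Sult2a8, Cyp1a1 and 5 Ugt2b genes had a mean under 2 and were not tested, and 2 list genes had no row. Marker lists also covered theca, luteal cells, stroma, endothelium, macrophages, oocytes, erythroid cells and kidney, and none of their genes had an adjusted p under 0.05 with limma-trend. DESeq2 called 1 theca gene, Insl3. Depth limits the precision of genes with few counts.

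Positions and exon lengths came from GENCODE M21 on GRCm38, which held 27533 of 27907 identifiers. The fits of limma-trend, edgeR and DESeq2 were tested on simulated data. Alternatives were the pseudocount, the filter, the scaling, array weights, marker covariates, each mouse left out, a replicate block and a threshold of 0.1. Added after seeing the data were the fits without the mice low in Cyp17a1, without WT 1 and WT 8, DESeq2 without each mouse and correlations with Hsd17b2 without WT 4. Software was limma 3.58.1, DESeq2 1.42.0 and edgeR 4.0.16 in R 4.3.3, and pandas 2.3.3, NumPy 2.4.6 and Matplotlib 3.10.9 in Python 3.11.15.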

Additional observations from a re-analysis of the deposited data

Results flagged for a closer look

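In each genotype the highest and lowest value of each of the 9 genes was compared with its neighbour, which gave 18 groups. About 1 in 20 groups is picked out in this way by chance. Hsd17b2 in WT 4 was 1033 normalized counts, with a gap to the next WT mouse of 0.558 of the range, above the critical value of 0.526 for 8 samples. Hsd17b11 in HSD17B1-KI 4 was 8009 normalized counts, with a gap of 0.589 of the range, above the critical value of 0.568 for 7 samples.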

How the results depend on the processing

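With limma-trend the number of DE genes was 46, and it was 28 with no filter, 28 with quantile normalization, 125 with array weights, 456 with DESeq2, 146 at an adjusted p under 0.1 and 2 with the surface epithelium covariate. It was 78 without the mice low in Cyp17a1, 9 without WT 1 and WT 8, and between 6 (without HSD17B1-KI 2) and 139 (without HSD17B1-KI 5) when each mouse was left out. With DESeq2 it was 846 and 244 without those mice, and between 272 (without HSD17B1-KI 2) and 674 when each was left out. Of the 9 genes, limma-trend called 0 under each alternative that was run, edgeR called 0 and DESeq2 called 1. Of the 2 with an unadjusted p under 0.05, Hsd17b2 kept it in 27 of 27 alternatives of limma-trend, whereas Srd5a3 kept it in 9 of 27 (p up to 0.152) and lost it with array weights, the replicate block, both marker covariates, both exclusions of mice chosen after seeing the data and 12 of 15 mice left out singly. With DESeq2 the number was 0 or 1 when each mouse was left out, and the log2 fold change of Hsd17b2 was then between -0.54 and -0.39. The cause of these changes was not tested, except that fewer mice enter some fits.

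The sign of Hsd17b2, Hsd17b4, Hsd17b11 and Srd5a3 did not change under any alternative. When each mouse was left out, the log2 fold change was between -0.10 and 0.25 for Akr1c14 (exact permutation p between 0.534 and 0.989), between -0.29 and 0.0668 for Hsd11b2 (0.406 to 0.985), between -0.20 and 0.0425 for Srd5a1 (0.418 to 0.984) and between -0.0464 and 0.21 for Srd5a2 (0.308 to 0.984). For Hsd17b11 it was between 0.12 and 0.32 (0.0683 to 0.341), and for Hsd11b1 between -0.60 and -0.18 (0.239 to 0.726). That of Srd5a2 was also -0.0555 with the surface epithelium covariate and -0.14 without the mice low in Cyp17a1 (exact permutation p = 0.498), where that of Hsd11b2 was 0.0282 (exact permutation p = 0.944). With the surface epithelium covariate that of Hsd11b1 was 0.18, that of Srd5a1 -0.30 and that of Hsd17b4 0.02. The cause was not tested.

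The replicate numbers of the labels did not pair the mice, since the correlation of same-numbered mice was between -0.55 and 0.55 and only 1 of 7 numbers correlated best with its own. With a replicate block limma-trend called 0 genes, 1735 had an unadjusted p under 0.05, and the log2 fold change of Srd5a2 was -0.0153. The SE of the log2 fold change was largest for Hsd11b1 (0.46), Akr1c14 (0.37) and Hsd11b2 (0.33).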
